A study of Homo sapiens with 12 samples.

Results

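Cells of the established human small cell lung cancer line SBC5 were profiled by RNA sequencing after olaparib and radiation were given together, and after vehicle alone. The combination group received olaparib at 1 µM and, 2 hours later, 4 Gy of gamma radiation. The vehicle group received the solvent dimethyl sulfoxide and 0 Gy. RNA was collected after 3 days in both. The labels give the genotype as wild type for all libraries, with no introduced allele or transgene. Each group held 3 libraries, and these 6 of the 12 libraries in the series are the subject here. The 6 libraries were defined by their labels, but the experiment and the gene lists were chosen with earlier results of these data known. All results come from 1 cell line, and the sources do not say whether the libraries of a group came from separate cultures, so the p-values measure only the spread between these libraries, which may be technical. Because whole cultures were sequenced, fewer cells of a kind and less RNA per cell cannot be told apart.

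Olaparib blocks PARP1 and PARP2, enzymes that mark DNA breaks with poly(ADP-ribose) chains and recruit repair factors. Radiation breaks DNA directly, and cells that cannot repair the breaks before replication can arrest, die or carry damage through mitosis. The integrated stress response is a separate pathway in which reduced translation initiation favours the transcription factor ATF4, whose known targets include amino acid synthesis enzymes, amino acid transporters and tRNA synthetases.

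Totals per library were 19441162, 20565728 and 19577565 estimated counts in the combination and 27007354, 33650470 and 34103630 in vehicle. The 2 ribosomal RNAs encoded by mitochondrial DNA took 32.9% to 33.4% of the counts in combination libraries and 35.5% to 36.8% in vehicle libraries. Levels are given as CPM, the usual unit of counts relative to the library total, after scaling by the trimmed mean of M values (TMM), so they can be compared between libraries for 1 gene but not between genes of different length. The label was checked against lineage markers. YAP1, the Hippo pathway effector that marks a non-neuroendocrine subtype of small cell lung cancer, had 93.3, 95.3 and 84.5 CPM in combination libraries and 119.8, 124 and 117 CPM in vehicle libraries, whereas INSM1, POU2F3, DLL3 and CHGA were below the count filter, and NEUROD1 stood at 1.07, 0.631 and 0.526 CPM in combination libraries and 3.26, 1.11 and 1.31 CPM in vehicle libraries. SYP, which encodes the neuroendocrine vesicle protein synaptophysin, was nevertheless present at 17.4, 20.7 and 16.5 CPM in combination libraries and 24.2, 27.4 and 20.8 CPM in vehicle libraries and was not called (log2 change -0.41, SE 0.137, adjusted p = 0.0801), and NCAM1 passed the filter at 1.32, 0.451 and 0.143 CPM in combination libraries and 0.589, 0.635 and 0.287 CPM in vehicle libraries. Summed over 8 leukocyte markers, levels ran from 5.72 to 6.64 CPM in the combination and from 4.11 to 5.33 CPM in vehicle. For 5 fibroblast markers they ran from 16 to 20.1 CPM in the combination and from 18.4 to 19.3 CPM in vehicle, and for 3 endothelial markers from 1.24 to 1.66 CPM in the combination and from 1.24 to 3.26 CPM in vehicle. For 5 airway and alveolar epithelial markers the sums were 2.75 to 3.42 CPM in the combination and 2.8 to 3.02 CPM in vehicle. Of these markers of other cell types that passed the count filter, edgeR, DESeq2 and limma-voom each called 0, and their part in the results was not tested. The targets of the drug remained expressed. PARP1 had 142, 165 and 141 CPM in combination libraries and 173, 187 and 208 CPM in vehicle libraries, log2 change -0.34, SE 0.0762, adjusted p = 0.00606, and was lower in 3 of 3 combination libraries, a call that was lost with library size alone (adjusted p = 0.239). PARP2 had 22.6, 20.3 and 22.9 CPM in combination libraries and 24.6, 20.9 and 25 CPM in vehicle libraries, and the groups overlapped (log2 change -0.10, SE 0.124, adjusted p = 0.779).

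Among the 52 gene lists read, the lowest median changes were those of mitochondrially encoded mRNAs, replication-dependent histones, nuclear respiratory chain subunits, cytosolic ribosomal proteins and cholesterol synthesis, and the highest were those of ATF4 targets and tRNA synthetases. Of 23003 genes tested, edgeR's quasi-likelihood test called 1494, or 6.49%, at an adjusted p under 0.05. Of these, 523 were higher (2.27% of the tested genes) and 971 lower (4.22%) in the combination. The median size of a called change was 0.464 on the log2 scale, with quartiles of 0.336 and 0.661. Called changes of at least 1 on the log2 scale numbered 93 higher (0.404%) and 49 lower (0.213%). The libraries of the 2 groups did not overlap for 5345 tested genes (23.2%) and for 1483 of the 1494 called genes. A lack of overlap in the genes below therefore adds little to their calls. These counts depend on the scaling. With library size in place of TMM factors the median of all genes moved from 0.01 to 0.20, and 2395 genes were called higher and 326 lower, so counts or medians of the gene groups below are given under that scaling as well where they change. The counts were smaller when a library was left out, down to 274 higher without combination 3 and 646 lower without vehicle 2, with 709 lower without vehicle 3. The higher genes numbered 296 without combination 1, 301 without vehicle 1 and 341 without vehicle 2. When all 12 libraries of the series were fitted together, 1 gene, IGF2, was called higher and 0 lower, with 1262 genes at an unadjusted p under 0.05, against 4118 in the 6-library fit. Without libraries 2 and 3 of olaparib alone and library 3 of radiation alone, the remaining 9 gave 475 higher and 1010 lower genes. Of these, 455 and 944 were also called in the 6-library fit. The 9 include all 6 libraries of that fit, so the overlap is not an independent check. The choice of the 3 libraries left out follows no stated rule.

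**Figure D1:**
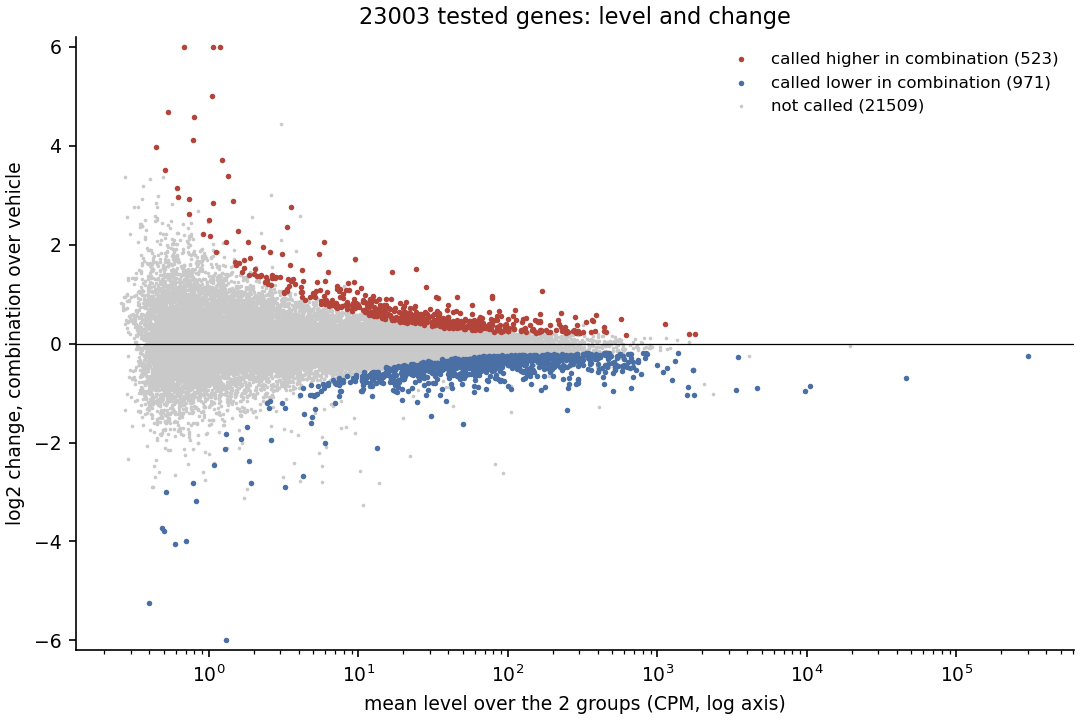
Mean level over the 2 groups in CPM (log axis) against the log2 change of the combination over vehicle for the 23003 tested genes, with changes beyond 6 drawn at the edge. The 523 genes called higher lie mostly between 1 and 100 CPM, and the most abundant called genes lie below 0.

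Abundant genes were called more often, and mostly lower. Among 31 genes with a mean of at least 1000 CPM, 3 were higher and 17 (54.8%) lower. Between 100 and 1000 CPM, 69 of 1356 genes were higher and 356 (26.3%) lower. Between 10 and 100 CPM, 323 of 6985 were higher and 531 (7.6%) lower. Between 1 and 10 CPM the balance was the other way, with 116 of 9797 higher and 59 lower, and under 1 CPM, 12 of 4834 were higher and 8 lower. Of the 50 genes of highest CPM, a rank that favours long transcripts, 3 were higher and 25 lower. The lower ones were 12 of the 13 mitochondrially encoded genes among them and 13 of the 37 nuclear ones. The 3 higher ones were ZNF292, NEAT1 and TPT1. ZNF292, a zinc finger transcription factor, had 1318, 1209 and 1269 CPM in combination libraries and 946, 1013 and 941 CPM in vehicle libraries, so all combination libraries lay above all vehicle libraries (log2 change 0.39, SE 0.0535, adjusted p = 2.51e-05). NEAT1, the noncoding RNA of nuclear paraspeckles, differed less (log2 change 0.19, SE 0.0519, adjusted p = 0.0256), and its call was lost without any of vehicle 1, 2 or 3 and without combination 1 or 3, with adjusted p of 0.0628 to 0.209. TPT1, which encodes a translationally controlled tumour protein, lost its call without vehicle 1 or 2 and without any combination library (adjusted p = 0.0742 to 0.23, against 0.0365 with all 6). Among the lower nuclear genes were ALDH1A1, an enzyme of retinoic acid synthesis, at 891, 868 and 877 CPM in combination libraries and 1277, 1363 and 1296 CPM in vehicle libraries (log2 change -0.58, SE 0.0513, adjusted p = 3.57e-08), SNX3, a sorting nexin of endosomes (log2 change -0.61, SE 0.0539, adjusted p = 3.5e-08), and GNAS, the stimulatory G protein alpha subunit (log2 change -0.49, SE 0.0552, adjusted p = 1.45e-06).

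**Figure D2:**
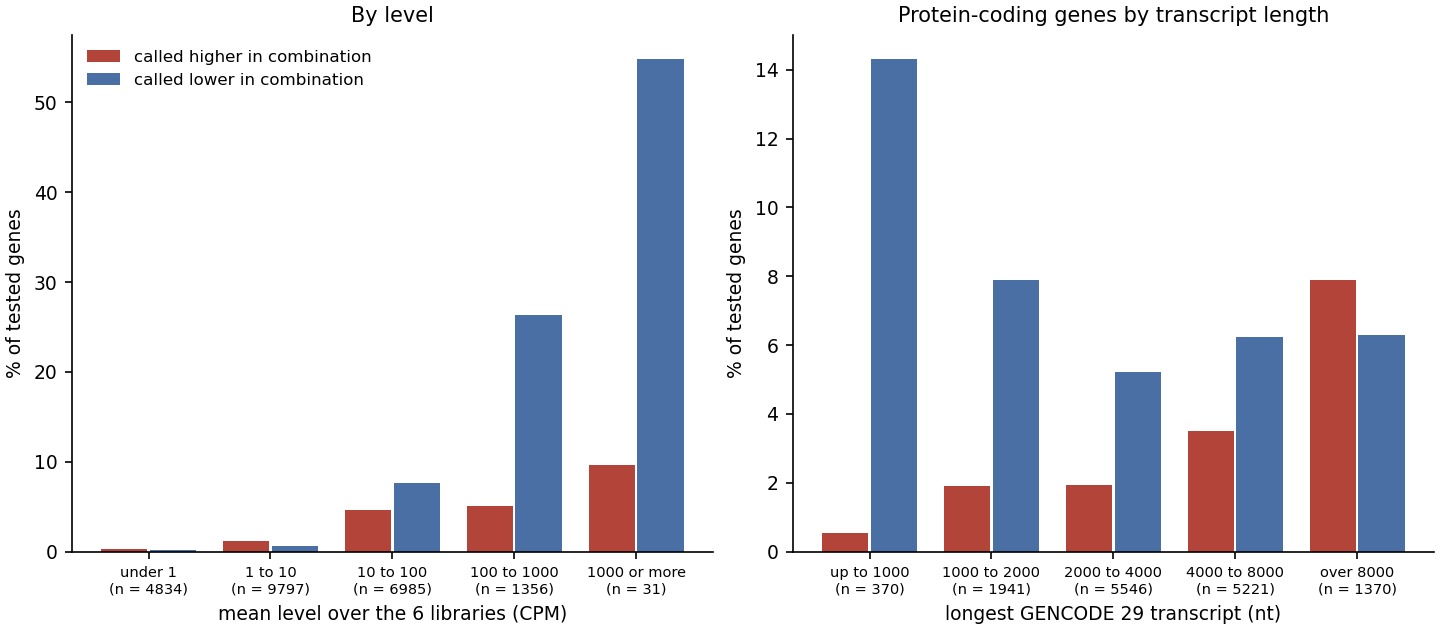
Percentage of tested genes called higher or lower in the combination, by mean level (left) and, for protein-coding genes, by the length of the longest annotated transcript (right), with the number of genes under each pair of bars. The share called lower reaches 54.8% at 1000 CPM or more and 14.3% among transcripts of up to 1000 nt.

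Several ATF4 target genes and tRNA synthetases rose. Of 29 tested genes on a list of the integrated stress response and ATF4 targets, 9 were higher and 0 lower, with a median log2 change of 0.34 against 0.01 over all genes. Of 20 cytosolic tRNA synthetases, which charge tRNAs with amino acids, 8 were higher and 1 lower (median 0.29). With library size alone 16 of the ATF4 target list and 14 of the synthetases were higher and 0 of either lower. ASNS, which makes asparagine, had 99.4, 96.1 and 109 CPM in combination libraries and 44, 52.5 and 64.4 CPM in vehicle libraries (log2 change 0.92, SE 0.112, adjusted p = 0.000103). PSAT1, an enzyme of serine synthesis, had 11.6, 16.5 and 14.6 CPM in combination libraries and 6.63, 5.65 and 7.17 CPM in vehicle libraries (log2 change 1.13, SE 0.188, adjusted p = 0.000276). For both genes each combination library exceeded each vehicle library. ATF3, a stress-induced transcription factor, showed the largest change on the list, with 8.01, 10 and 7.31 CPM in combination libraries and 1.88, 1.87 and 3.51 CPM in vehicle libraries (log2 change 1.80, SE 0.277, adjusted p = 0.000111). CEBPG, which pairs with ATF4 on DNA, had 45.4, 40.1 and 44.3 CPM in combination libraries and 17.9, 24.2 and 25.4 CPM in vehicle libraries (log2 change 0.94, SE 0.12, adjusted p = 1.05e-05). The secreted glycoprotein gene STC2 had 105, 104 and 100.1 CPM in combination libraries and 48.4, 54 and 56.9 CPM in vehicle libraries (log2 change 0.96, SE 0.0796, adjusted p = 1.09e-08). MTHFD2, a mitochondrial enzyme of the folate cycle, had 268, 247 and 236 CPM in combination libraries and 159, 188 and 193 CPM in vehicle libraries (log2 change 0.47, SE 0.0733, adjusted p = 0.000143). The cystine transporter SLC7A11 and DDIT3, which encodes the factor CHOP, were also called, but less stably. SLC7A11 lost its call without vehicle 2 or 3 or without combination 2 or 3 (adjusted p = 0.0744 to 0.129), and DDIT3 (log2 change 0.34, SE 0.0942, adjusted p = 0.026) lost it without vehicle 1 or 2 or combination 1 or 2 (adjusted p = 0.087 to 0.187). The RNA of ATF4 itself, whose activity is set mainly by translation, had 159, 158 and 153 CPM in combination libraries and 127, 148 and 155 CPM in vehicle libraries and was not called (log2 change 0.13, SE 0.0725, adjusted p = 0.39). CHAC1 and SESN2 had log2 changes of 1.38 and 1.34 at low levels and did not pass (adjusted p = 0.0618 and 0.0694).

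Among the synthetases, CARS1 for cysteine changed most, with 58.8, 61 and 61.9 CPM in combination libraries and 28.5, 31.5 and 34 CPM in vehicle libraries (log2 change 0.95, SE 0.093, adjusted p = 1.84e-07). GARS1 for glycine had 509, 426 and 453 CPM in combination libraries and 291, 316 and 324 CPM in vehicle libraries (log2 change 0.58, SE 0.0664, adjusted p = 2.05e-06). AARS1 for alanine had 274, 267 and 277 CPM in combination libraries and 160.1, 171 and 200.3 CPM in vehicle libraries (log2 change 0.62, SE 0.0719, adjusted p = 2.08e-06). TARS1 for threonine and MARS1 for methionine had log2 changes of 0.59 and 0.66, and SARS1, YARS1 and IARS1 had 0.50, 0.45 and 0.37. The libraries of these 8 genes did not overlap between groups, as for 1483 of all 1494 called genes. The 8 calls held with each library left out in turn. VARS1 for valine was the member called lower (log2 change -0.56, SE 0.15, adjusted p = 0.0324), a call that was lost with library size alone, without vehicle 1 or 3 and without combination 1 or 3 (adjusted p = 0.0768 to 0.167). Synthetases for leucine (LARS1) and arginine (RARS1) and the bifunctional EPRS1 had log2 changes of 0.03, -0.04 and 0.07 and did not pass. Among 25 amino acid transporters 2 were higher, SLC7A11 and SLC7A5, with 1 higher without vehicle 2, combination 2 or combination 3 and 7 higher with library size alone. SLC7A5, the large neutral amino acid transporter, had 20.7, 22.8 and 21 CPM in combination libraries and 9.93, 11.9 and 12.5 CPM in vehicle libraries (log2 change 0.91, SE 0.145, adjusted p = 0.000168).

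Promoters were read for the letters of the C/EBP-ATF response element, TGATGNAAN on either strand, which ATF4 and its partners bind. Windows ran from 250 bases before to 50 after each RefSeq start (GRCh38.p14), and a gene counted when any of its windows held the letters. The letters were in 6 of the 23 stress response genes with a window (26.1%), against 1215 of 27305 genes overall (4.45%). That list was drawn up to include ATF4 targets, so its higher share does not depend on the treatment. Binding of ATF4 in these cells was not tested. Of the 8 called members with a window, 4 held them: ASNS, ATF3, CARS1 and CEBPG. Read for the synthetases too, a choice made after their values were seen, the letters were in 7 of 16 genes with a window (43.8%) and in 6 of the 7 called ones. AARS1, GARS1 and IARS1 had a match wholly before the start. The matches of CARS1, which is on both lists, MARS1 and TARS1 reached past it. Among called genes of the stress response list with a match before the start, ASNS and CEBPG had the highest levels. Their matches lie 59 and 33 bases before the start and are printed on the strand of the gene with the matched letters in capitals.
ASNS, chr7:97872458-97872486, minus strand: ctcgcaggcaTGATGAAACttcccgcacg
CEBPG, chr19:33374061-33374089, plus strand: gcgcggcgtcTGATGCAACctgccggcaa

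**Figure D3:**
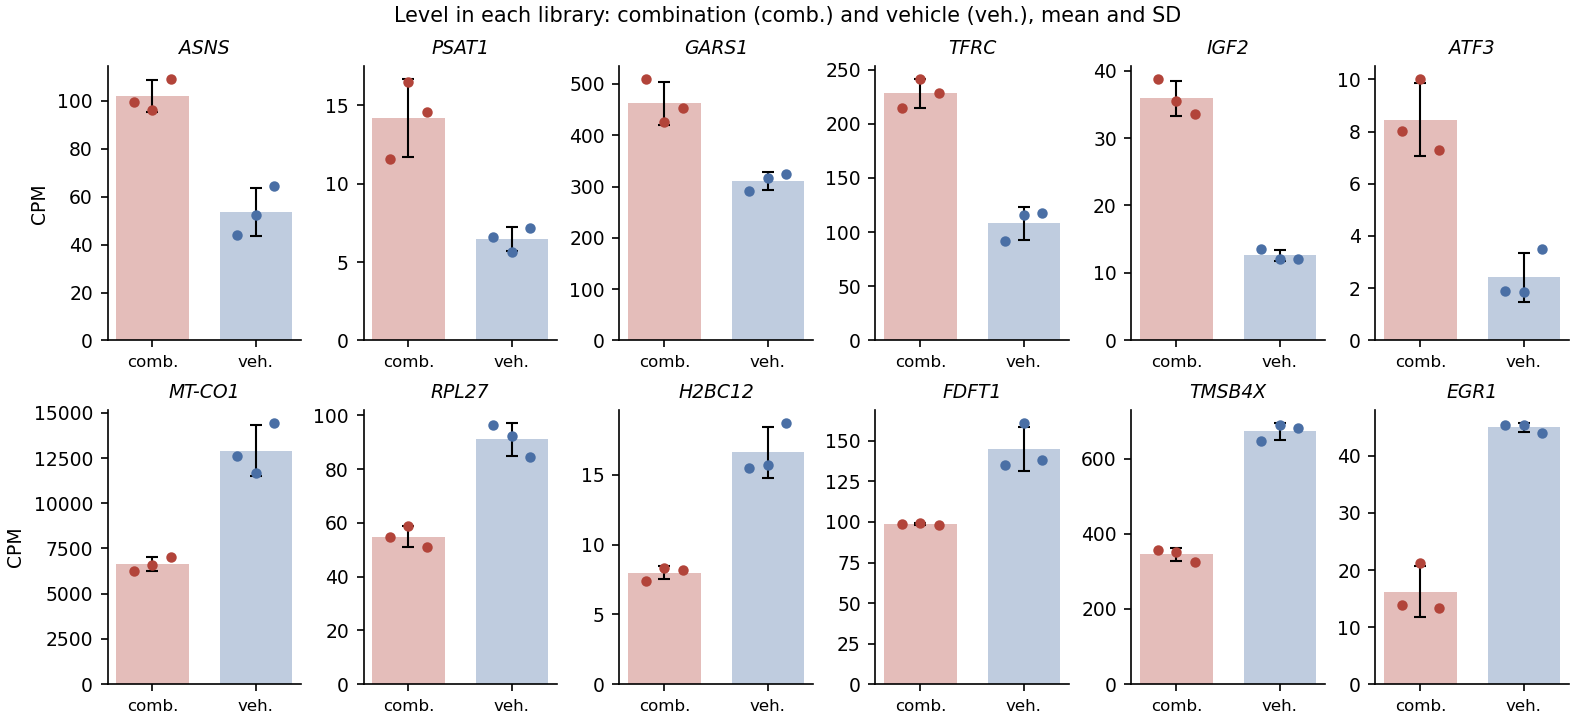
CPM of 12 genes in each library (points), with the group mean (bar) and standard deviation (error bar), combination on the left and vehicle on the right of each panel. In the upper row each combination library lies above each vehicle library, and in the lower row each lies below.

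Many RNAs of the respiratory chain fell, both those encoded by mitochondrial DNA and nuclear ones. Of 13 mitochondrially encoded mRNAs, 12 were called lower and 0 higher (median log2 change -0.89). Their summed share of the counts was 3.05% to 3.1% in combination libraries and 4.79% to 5.05% in vehicle libraries. MT-ND3, a subunit of complex I, had 141, 145 and 136 CPM in combination libraries and 345, 362 and 359 CPM in vehicle libraries (log2 change -1.34, SE 0.0618, adjusted p = 2.86e-13). MT-CO1, the catalytic subunit of complex IV, had 6255, 6575 and 7044 CPM in combination libraries and 12616, 11688 and 14432 CPM in vehicle libraries (log2 change -0.96, SE 0.074, adjusted p = 2.51e-05). MT-ATP6 of the ATP synthase had 1088, 997 and 1018 CPM in combination libraries and 2179, 2231 and 1996 CPM in vehicle libraries (log2 change -1.05, SE 0.0544, adjusted p = 1.8e-12). In each case the highest combination library lay under the lowest vehicle library. MT-CYB of complex III and MT-ND1 of complex I changed least among the called ones (-0.54 and -0.53). MT-ND6, the only one encoded on the light strand, had 1653, 1454 and 1344 CPM in combination libraries and 2857, 2851 and 2077 CPM in vehicle libraries and did not pass (log2 change -0.81, SE 0.168, adjusted p = 0.0817). With library size alone 12 of the 13 were still called lower, with a median of -0.70. Of 19 mitochondrial tRNAs 11 were lower (median -1.33). Their mean levels ran from 0.111 to 222 CPM in the combination and from 0.531 to 369 CPM in vehicle, so some were barely detected. The tRNA count under library size alone is not given here. The ribosomal RNA MT-RNR2 fell less, by 0.26, and that call was lost with library size alone (adjusted p = 0.138). MT-RNR1 was called lower (log2 change -0.69, SE 0.108, adjusted p = 0.0286), but not with library size alone, without vehicle 2 or without combination 2 or 3 (adjusted p = 0.0702 to 0.138). Nuclear copies of mitochondrial genes share sequence with them. One such copy, MTATP6P1, was also lower (-0.90), and reads cannot be assigned to it with certainty.

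Among 76 nuclear genes for respiratory chain and ATP synthase subunits, 27 were lower and 0 higher (median -0.39), with 13 lower and 1 higher with library size alone. CYC1, cytochrome c1 of complex III, had 12.2, 13.3 and 13.2 CPM in combination libraries and 23.8, 20 and 22.8 CPM in vehicle libraries (log2 change -0.78, SE 0.139, adjusted p = 0.000578). ATP5F1E, the epsilon subunit of the ATP synthase, had 99.6, 99.7 and 97.5 CPM in combination libraries and 176, 158 and 146 CPM in vehicle libraries (log2 change -0.69, SE 0.0727, adjusted p = 5.95e-07). NDUFA13 of complex I had 10.3, 14.9 and 12.5 CPM in combination libraries and 18, 24.6 and 24.2 CPM in vehicle libraries (log2 change -0.83, SE 0.159, adjusted p = 0.00148). The 3 genes did not overlap between groups. The machinery that makes and maintains mitochondrial RNA and DNA was not called: edgeR found 0 of 27 such genes, including polymerases and RNA processing factors, past the threshold (median 0.02), with 6 lower and 0 higher at an unadjusted p under 0.05 and 0 by DESeq2 and limma-voom. Without vehicle 1 or combination 2, 1 of the 27 was called lower, and with library size alone 3 were called higher. Of 77 mitochondrial ribosomal proteins 3 (3.9%) were lower, MRPL20, MRPS34 and MRPL32, a share close to the 4.22% of all tested genes. The list median of -0.14 became 0.05 with library size alone, when 3 were higher and 2 lower. The lower count was 5 without vehicle 1, combination 1 or combination 2, and 8 by DESeq2.

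**Figure D4:**
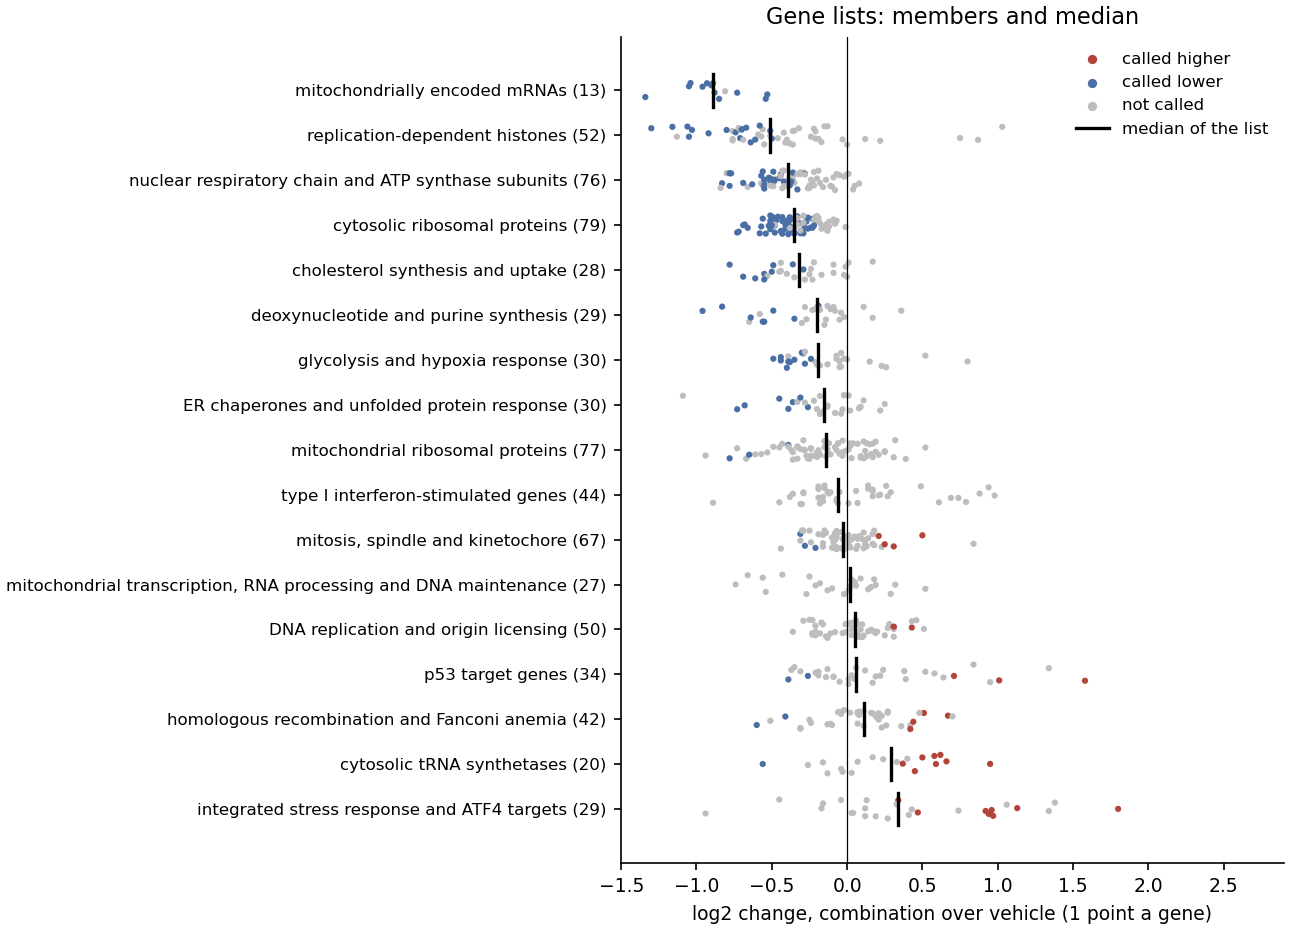
Log2 change of the combination over vehicle for each tested member of 17 gene lists (points, with the number tested in brackets) and the list median (black bar). Lists are ordered by median, from mitochondrially encoded mRNAs (-0.89) to the integrated stress response (0.34).

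All 79 cytosolic ribosomal protein genes had a negative log2 change, and 51 were called lower (median -0.35, range -0.73 to -0.01). With library size alone the median was -0.15 and 23 were called lower. RPL27 of the large subunit had 54.7, 58.9 and 51.1 CPM in combination libraries and 96.4, 92.5 and 84.4 CPM in vehicle libraries (log2 change -0.73, SE 0.0823, adjusted p = 1.35e-06). RPS27A, which is made as a fusion with ubiquitin, had 137, 140.0 and 132 CPM in combination libraries and 212, 212 and 221 CPM in vehicle libraries (log2 change -0.66, SE 0.0634, adjusted p = 1.63e-07). RPL38 had 219.9, 184 and 183 CPM in combination libraries and 290.2, 322 and 331 CPM in vehicle libraries (log2 change -0.69, SE 0.0736, adjusted p = 1.26e-06). No library of one group reached into the range of the other for these 3 genes. Ribosomal proteins have many processed pseudogenes, so the split of their reads is uncertain. Of 48 translation factors, 2 were higher and 12 lower (median -0.13, and 0.06 with library size alone, when 9 were higher and 1 lower), and the lower count was 7 without vehicle 2 and 6 without vehicle 3. EEF1A1, the elongation factor that delivers tRNAs, was lower (log2 change -0.27, SE 0.0536, adjusted p = 0.00185) but not with library size alone (adjusted p = 0.351). EIF5, which triggers start codon selection, was higher, with 110.0, 103 and 105 CPM in combination libraries and 66.7, 69.3 and 66.9 CPM in vehicle libraries (log2 change 0.65, SE 0.073, adjusted p = 1.26e-06). EIF2S2, the beta subunit of eIF2, was also higher (log2 change 0.45, SE 0.0695, adjusted p = 0.000101). Of 21 snoRNA host genes 5 were higher and 1 lower, and of the 5, SNHG32 alone kept its call in every fit that left out a library (log2 change 0.62, SE 0.114, adjusted p = 0.000793). The higher count was 10 with library size alone and 1 to 3 when a library was left out. It was 1 without vehicle 1 or combination 3, 2 without vehicle 2, vehicle 3 or combination 1, and 3 without combination 2.

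Some replication-dependent histone genes, which are transcribed in S phase, fell. Of 52 tested, 17 were lower and 0 higher (median -0.51, and -0.31 with library size alone, when 9 were lower and 1 higher). H1-2, a linker histone, had 21.7, 29 and 20.5 CPM in combination libraries and 48.4, 51.3 and 59 CPM in vehicle libraries (log2 change -1.16, SE 0.121, adjusted p = 1.26e-06). H2BC12 had 7.42, 8.3 and 8.17 CPM in combination libraries and 15.5, 15.7 and 18.7 CPM in vehicle libraries (log2 change -1.06, SE 0.166, adjusted p = 0.000133). H2AC20 had 27.5, 23.9 and 23.5 CPM in combination libraries and 39.2, 45 and 57.7 CPM in vehicle libraries (log2 change -0.92, SE 0.124, adjusted p = 4.28e-05). The vehicle libraries were all above the combination libraries for these genes. The count of lower histones was 8 without vehicle 2 or vehicle 3 and 10 without combination 1 or combination 3. Several histone genes are nearly identical in sequence, and their counts may be split unevenly. Replacement histones, which are made throughout the cycle, had 3 of 10 members lower (median -0.25), with 1 lower without combination 1 and 0 with library size alone. Of 50 genes of DNA replication and origin licensing, 3 were higher and 0 lower (median 0.05), with 10 higher and 4 lower at an unadjusted p under 0.05. Scaled by library size alone, 11 were higher and 0 lower (median 0.25). The 3 were DBF4, the activator of the origin kinase CDC7 (log2 change 0.43, SE 0.0762, adjusted p = 0.000613), CLSPN and POLE3. Both CLSPN and POLE3 were lost on leaving out single libraries, and 1 of 50 was called without vehicle 1, vehicle 3, combination 1 or combination 2. PCNA, the polymerase clamp, had 10.9, 14.9 and 17.8 CPM in combination libraries and 15.3, 17.9 and 14.9 CPM in vehicle libraries, with overlap between groups. Enzymes of nucleotide supply were lower in 8 of 29 cases and higher in 0 (median -0.20), with 4 lower and 2 higher with library size alone. ATIC of purine synthesis had 17.7, 12.6 and 13.1 CPM in combination libraries and 27, 25.4 and 31.9 CPM in vehicle libraries (log2 change -0.96, SE 0.144, adjusted p = 8.47e-05). TYMS, which makes thymidylate, and NME2, a nucleoside diphosphate kinase, changed by -0.56 and -0.64 on the log2 scale.

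Histone promoters were read for CCAAT and TATAAA on either strand in the same windows. CCAAT was in 42 of 49 tested histone genes with a window (85.7%), against 10846 of 27305 genes (39.7%), and in 16 of the 17 called ones. TATAAA was in 33 of the 49 (67.3%), against 3819 of 27305 (14%), and in 11 of the 17. Divergent histone gene pairs share a promoter, so these are not separate observations. H1-4 and H2AC20 had the highest levels among called members that hold both on the strand of the gene, and the match of each motif nearest the start is printed in capitals. The TATAAA letters lie 23 bases before the start in both genes.
H1-4 CCAAT, chr6:26156265-26156289, plus strand: ggacagcgcaCCAATcacggcgcag
H1-4 TATAAA, chr6:26156290-26156315, plus strand: ctccgccctaTATAAAcgggcgggcg
H2AC20 CCAAT, chr1:149886838-149886862, plus strand: catattaggaCCAATgaaaaactcg
H2AC20 TATAAA, chr1:149886879-149886904, plus strand: taggaaagctTATAAAggctttcctc

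Part of the cholesterol synthesis and uptake genes fell. Of 28 tested, 9 were lower and 0 higher (median -0.32, and -0.13 with library size alone, when 6 were lower). FDFT1, squalene synthase, had 98.9, 99.2 and 97.9 CPM in combination libraries and 135, 161 and 138 CPM in vehicle libraries (log2 change -0.55, SE 0.0733, adjusted p = 1.6e-05). INSIG1, which retains the sterol sensor in the endoplasmic reticulum, had 59.6, 64 and 65.3 CPM in combination libraries and 101, 108 and 96.3 CPM in vehicle libraries (log2 change -0.69, SE 0.0772, adjusted p = 1.19e-06). All vehicle libraries exceeded all combination libraries for both. MSMO1 and STARD4, a sterol-modifying enzyme and a sterol carrier, had log2 changes of -0.78 and -0.61. SREBF2, the transcription factor that drives the pathway, was itself lower (log2 change -0.49, SE 0.0886, adjusted p = 0.000661). CYP51A1, LSS and DHCR7 of the same pathway had log2 changes of 0.01, -0.09 and -0.01 and did not pass. The sterol response element letters TCACNCCAC, read on either strand, were in 1 of the 22 list genes with a window (4.55%), against 379 of 27305 (1.39%). That gene was SREBF2, shown here on its own strand with the match in capitals.
SREBF2, chr22:41832962-41832990, plus strand: tgacgcgccaTCACCCCACgcaccgcttc

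Among 20 genes of fatty acid synthesis and desaturation, 4 were lower and 1 higher (median -0.09, and 0.11 with library size alone, when 3 were higher and 0 lower). FASN, fatty acid synthase, had 28.7, 39.7 and 37.5 CPM in combination libraries and 50.8, 48 and 53.9 CPM in vehicle libraries (log2 change -0.53, SE 0.108, adjusted p = 0.00265), a call lost with library size alone (adjusted p = 0.051). The 1 gene called higher, ELOVL5, was not called without vehicle 1, vehicle 3 or any combination library.

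Protein folding and sugar metabolism genes were lower in part. Of all tested genes 4.22% were lower, with 26.3% at 100 to 1000 CPM and 7.6% at 10 to 100 CPM. Of 30 endoplasmic reticulum chaperones and unfolded protein response genes, 7 were lower and 0 higher (median -0.15, and 0.05 with library size alone, when 4 were higher and 4 lower). HSPA5, the chaperone BiP, had 575, 452 and 551 CPM in combination libraries and 789.9, 856 and 887 CPM in vehicle libraries (log2 change -0.68, SE 0.0777, adjusted p = 4.08e-05). MANF, which is co-regulated with BiP under endoplasmic reticulum stress, was also lower (log2 change -0.73, SE 0.122, adjusted p = 0.000294), as was PDIA6, a disulfide isomerase (log2 change -0.45, SE 0.0574, adjusted p = 9.07e-06). The sensors EIF2AK3, ERN1 and ATF6 had log2 changes of 0.11, -0.02 and 0.02 and did not pass. Among 26 cytosolic chaperones 7 were lower and 0 higher (median -0.13, and 0.06 with library size alone, when 7 were higher and 2 lower), with 3 lower without vehicle 2 and 4 without combination 1. The constitutive chaperone HSPA8 had 629, 566 and 562 CPM in combination libraries and 826, 885 and 839 CPM in vehicle libraries (log2 change -0.54, SE 0.0576, adjusted p = 7.06e-07). Of 36 proteasome subunits 7 were lower and 0 higher (median -0.13, and 0.07 with library size alone, when 2 were higher and 2 lower), with 4 lower without vehicle 3 or combination 3. Of 30 glycolysis and hypoxia genes 10 were lower and 0 higher (median -0.19), with 6 lower without vehicle 3 or combination 3 and 3 lower and 3 higher with library size alone. PGK1, which makes the first ATP of glycolysis, had 261, 266 and 281 CPM in combination libraries and 351, 351 and 398 CPM in vehicle libraries (log2 change -0.44, SE 0.0637, adjusted p = 4.32e-05). LDHA, lactate dehydrogenase A, had 696, 642 and 605 CPM in combination libraries and 838, 843 and 844 CPM in vehicle libraries (log2 change -0.38, SE 0.057, adjusted p = 8.61e-05). Both genes separated the groups completely. VEGFA, a hypoxia target, had a log2 change of 0.26 and was not called. TXN, thioredoxin, had 65.3, 63.7 and 65.7 CPM in combination libraries and 101, 101 and 101 CPM in vehicle libraries (log2 change -0.64, SE 0.0731, adjusted p = 1.7e-06).

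DNA repair and p53 target genes changed in few members. In homologous recombination and Fanconi anemia 4 of 42 genes were higher and 2 lower (median 0.11), and 13 higher and 0 lower with library size alone. BRCA2, a mediator of recombination repair, had 146, 125 and 137 CPM in combination libraries and 89.5, 93.4 and 74 CPM in vehicle libraries (log2 change 0.67, SE 0.084, adjusted p = 1.21e-05). BRCA1 had 81.4, 81.7 and 75 CPM in combination libraries and 54.4, 59.7 and 52.8 CPM in vehicle libraries (log2 change 0.51, SE 0.0812, adjusted p = 0.000154). Each combination library was above each vehicle library for both. The other higher genes, XRCC2 and GEN1, lost their calls on leaving out single libraries, and 2 were called higher without vehicle 3. FANCL and NBN were lower (-0.60 and -0.41), and 1 gene was called lower without vehicle 3 or combination 3. Of 32 checkpoint and end joining genes 3 were lower and 0 higher (median -0.06, and 0.14 with library size alone, when 6 were higher and 1 lower), among them XRCC5, the Ku80 subunit (log2 change -0.42, SE 0.0654, adjusted p = 0.000129). Of 33 base excision repair and PARP family genes 1 was higher and 1 lower (median -0.02), against 3 higher and 0 lower with library size alone (median 0.18). NEIL3, a DNA glycosylase, was higher (log2 change 0.77, SE 0.177, adjusted p = 0.00732), but not without vehicle 2 or combination 1, and PARP1 was lower.

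Of 34 p53 target genes 3 were higher and 2 lower (median 0.06), and 8 were higher and 1 lower with library size alone (median 0.25). AEN, an apoptosis-enhancing nuclease, had 10.4, 10.2 and 10.9 CPM in combination libraries and 5.06, 4.76 and 5.8 CPM in vehicle libraries (log2 change 1.01, SE 0.201, adjusted p = 0.00192). CDKN1A, which encodes the cell cycle inhibitor p21, had 1.95, 2.84 and 2.01 CPM in combination libraries and 0.981, 0.825 and 0.478 CPM in vehicle libraries (log2 change 1.58, SE 0.472, adjusted p = 0.0434). Its call was lost in every fit that left out a library (adjusted p = 0.0623 to 0.202), at levels under 3 CPM in all libraries. PMAIP1, a BH3-only death gene, was called (log2 change 0.71, SE 0.19, adjusted p = 0.0221) but not without vehicle 1, 2 or 3 or combination 3. The number called higher was 1 without vehicle 1, vehicle 2 or combination 3. PLK2 and CCNG1 were the 2 lower ones (-0.39 and -0.26), and 1 was called without vehicle 2 or combination 2. MDM2, a ubiquitin ligase on the list, had 166, 179.8 and 194 CPM in combination libraries and 154, 157 and 161 CPM in vehicle libraries and did not pass (log2 change 0.19, SE 0.0679, adjusted p = 0.0993), nor did RB1, the retinoblastoma gene (log2 change -0.01, SE 0.0804, adjusted p = 0.973). MCL1, an antiapoptotic BCL2 family member, was lower (log2 change -0.36, SE 0.0621, adjusted p = 0.000435), except with library size alone (adjusted p = 0.0759).

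The series title names chemokines and anti-PD-L1 therapy, so immune genes were examined at the RNA level. Of 35 chemokines, 12 had 0 counts in all 6 libraries, CXCL10 and CXCL9 among them. A count of 0 allows up to 0.146 to 0.154 CPM in a combination library and 0.088 to 0.111 CPM in a vehicle library, for counting error only. These limits use library totals without TMM scaling, unlike the other CPM values. TMM factors were 1.06 to 1.08 in combination and 0.921 to 0.946 in vehicle libraries, so scaled limits would lie closer together. Just 5 chemokines passed the count filter, and edgeR, DESeq2 and limma-voom called 0 of them, with 0 at an unadjusted p under 0.05 in edgeR. Their median was -0.19, and 0.01 with library size alone, when 1 was called higher. CCL28, the most abundant of them, had 13, 10.9 and 11.6 CPM in combination libraries and 9.02, 10.3 and 8.58 CPM in vehicle libraries (log2 change 0.35, SE 0.175, adjusted p = 0.305). The summed level of the 35 was 17 to 20.4 CPM in the combination and 13.5 to 18.5 CPM in vehicle, so the groups overlapped. CCL5 and CD274, which encodes PD-L1, were below the filter and so not tested, and IFNB1 had 0 counts throughout. CD274 had 0.293, 0.361 and 0.143 CPM in combination libraries and 0, 0.0635 and 0.128 CPM in vehicle libraries. CCL5 had 0.342, 0.0902 and 0.239 CPM in combination libraries and 0.196, 0.0952 and 0.255 CPM in vehicle libraries. Of 44 type I interferon-stimulated genes, edgeR called 0 (median -0.06, and 0.14 with library size alone), with 3 lower and 0 higher at an unadjusted p under 0.05. DESeq2 called 1 lower and limma-voom 0, and without vehicle 1 edgeR called 1 higher and 1 lower. Of 23 antigen presentation genes 2 were lower and 0 higher: TAPBP, which bridges the peptide transporter to MHC class I (log2 change -0.64, SE 0.131, adjusted p = 0.00264), and the chaperone CALR (log2 change -0.26, SE 0.0561, adjusted p = 0.00476, lost with library size alone). On scaling by library size alone, 2 were higher and 1 lower. B2M, the MHC class I light chain, had 125, 154 and 157 CPM in combination libraries and 134, 126 and 125 CPM in vehicle libraries, with overlapping groups (log2 change 0.18, SE 0.078, adjusted p = 0.205). CGAS, the cytosolic DNA sensor, had 35.1, 33.6 and 37.6 CPM in combination libraries and 31, 32.7 and 27 CPM in vehicle libraries (log2 change 0.23, SE 0.107, adjusted p = 0.256), so the groups did not overlap, as for 23.2% of all tested genes, and it was not called. It was called higher with library size alone (log2 change 0.42, adjusted p = 0.0106). Its downstream adaptor STING1 was below the filter, at 0.195, 1.22 and 0.717 CPM in combination libraries and 0.392, 0 and 0 CPM in vehicle libraries. Of 41 genes for AU-rich element binding and mRNA decay 6 (14.6%) were lower and 0 higher (median -0.06, and 0.13 with library size alone, when 7 were higher and 2 lower), among them ZFP36L1, which destabilises AU-rich mRNAs, at 34.5, 36.1 and 36.4 CPM in combination libraries and 62.3, 61.8 and 63.6 CPM in vehicle libraries (log2 change -0.81, SE 0.0862, adjusted p = 6.7e-07). Among all tested genes 4.22% were lower, with 26.3% at 100 to 1000 CPM and 7.6% at 10 to 100 CPM.

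Several growth factor, surface and lineage genes were among the nuclear genes of smallest p-value. IGF2, insulin-like growth factor 2, had 38.7, 35.5 and 33.6 CPM in combination libraries and 13.6, 12.1 and 12.1 CPM in vehicle libraries (log2 change 1.51, SE 0.122, adjusted p = 5.32e-09). TFRC, the transferrin receptor that imports iron, had 215, 241 and 228 CPM in combination libraries and 91.4, 116 and 118 CPM in vehicle libraries (log2 change 1.07, SE 0.0846, adjusted p = 1.08e-07). CACNB4, an accessory subunit of voltage-gated calcium channels, had 40.6, 40.7 and 36.4 CPM in combination libraries and 17.4, 17.8 and 17.9 CPM in vehicle libraries (log2 change 1.15, SE 0.11, adjusted p = 1.48e-07). These 3 were higher in all combination libraries than in any vehicle library. TMSB4X, thymosin beta 4, which holds actin monomers, had 357, 352 and 325 CPM in combination libraries and 646, 688 and 682 CPM in vehicle libraries (log2 change -0.96, SE 0.0582, adjusted p = 2.26e-11). SOX2, a stem cell and neural lineage transcription factor, had 312, 326 and 316 CPM in combination libraries and 557, 585 and 531 CPM in vehicle libraries (log2 change -0.81, SE 0.0581, adjusted p = 8.19e-10). HGF, hepatocyte growth factor, had 132, 116 and 124 CPM in combination libraries and 222, 221 and 240.1 CPM in vehicle libraries (log2 change -0.88, SE 0.0683, adjusted p = 3.11e-09). These 3 were lower in all combination libraries. CCN2, a matricellular protein and YAP1 target, GJA1, the gap junction protein connexin 43, GRIA2, a subunit of AMPA receptors, and SCG2, a secretory granule protein, were also lower, with log2 changes of -0.81, -0.79, -0.93 and -0.91.

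Of 23 lineage regulators of small cell lung cancer 7 were lower and 0 higher (median -0.18, and 0.01 with library size alone, when 4 were lower and 1 higher). Besides SOX2 and SCG2 they included SOX4 (log2 change -0.65, SE 0.0686, adjusted p = 6.55e-07), FOXA1, a pioneer factor (log2 change -0.61, SE 0.0899, adjusted p = 6.65e-05), and YAP1 (log2 change -0.40, SE 0.072, adjusted p = 0.000643), which was not called with library size alone (adjusted p = 0.0569). MYC was lower at 17.6, 17.2 and 14.9 CPM in combination libraries and 24.2, 20.4 and 25 CPM in vehicle libraries (log2 change -0.49, SE 0.135, adjusted p = 0.0277), but not with library size alone, by limma-voom, or without vehicle 1 or 3 or combination 3 (adjusted p = 0.0522 to 0.178). Of 52 actin cytoskeleton genes 9 (17.3%) were lower and 0 higher (median -0.14, and 0.05 with library size alone, when 3 were higher and 3 lower), with 5 lower without vehicle 2 or combination 3. Among all tested genes 4.22% were lower, with 26.3% at 100 to 1000 CPM and 7.6% at 10 to 100 CPM. Mean levels on the actin list ran from 0.484 to 882 CPM. PFN1, profilin 1, had 64.7, 80.5 and 66.9 CPM in combination libraries and 116, 114 and 156 CPM in vehicle libraries (log2 change -0.86, SE 0.136, adjusted p = 0.00544). ACTB, beta actin, had 366, 452 and 382 CPM in combination libraries and 585, 568 and 666 CPM in vehicle libraries (log2 change -0.60, SE 0.078, adjusted p = 0.000107). ACTG1, the other cytoplasmic actin, had -0.08 on the log2 scale and was not called.

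Of 36 immediate early and MAPK feedback genes 4 were higher and 4 lower (median 0.16), against 8 higher and 3 lower with library size alone. EGR1, an early growth response factor, had 13.9, 21.3 and 13.3 CPM in combination libraries and 45.5, 45.4 and 44.1 CPM in vehicle libraries (log2 change -1.47, SE 0.143, adjusted p = 1.24e-06). DUSP6, a phosphatase that limits ERK, had 38.4, 38.5 and 40.1 CPM in combination libraries and 58.1, 67.9 and 62.6 CPM in vehicle libraries (log2 change -0.69, SE 0.0886, adjusted p = 1.03e-05). JUN, a subunit of AP-1, moved the other way, with 11.7, 9.74 and 9.23 CPM in combination libraries and 3.73, 5.65 and 4.94 CPM in vehicle libraries (log2 change 1.10, SE 0.219, adjusted p = 0.00206). NR4A3, an orphan nuclear receptor, had 8.6, 8.25 and 8.03 CPM in combination libraries and 4.79, 3.62 and 3.64 CPM in vehicle libraries (log2 change 1.05, SE 0.23, adjusted p = 0.00471). KLF10 was higher and KLF6 lower (0.55 and -0.48), and FOS, the usual partner of JUN, was at -0.01 and not called. In the Notch pathway HES1, a target repressor, had 8.84, 8.25 and 10.3 CPM in combination libraries and 3.37, 3.36 and 3.28 CPM in vehicle libraries (log2 change 1.45, SE 0.228, adjusted p = 0.000138), NOTCH2 was higher (log2 change 0.40, SE 0.0788, adjusted p = 0.00158), and JAG1, HEY1 and MAML2 were lower (-0.26, -0.34 and -0.41). In all, 2 of the 25 Notch genes were higher and 3 lower, with 1 lower without vehicle 3, and 4 were higher and 0 lower with library size alone.

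Of 67 genes of mitosis, spindle and kinetochore 4 were higher and 3 lower (median -0.03, and 0.16 with library size alone, when 16 were higher and 0 lower). CENPF, a kinetochore protein of late cell cycle, had 660.0, 679 and 681 CPM in combination libraries and 463, 490.0 and 475 CPM in vehicle libraries (log2 change 0.50, SE 0.0545, adjusted p = 8.67e-07). CKAP2L, a spindle protein, was the other gene called higher in every fit that left out a library (log2 change 0.31, SE 0.0699, adjusted p = 0.00565). The higher count was 2 or 3 when a library was left out, with 2 without vehicle 1, vehicle 3, combination 2 or combination 3, and the lower count was 0 without vehicle 2 or combination 1 and 1 without vehicle 1 or combination 2. MKI67, the proliferation antigen Ki-67, had 1017, 1026 and 1003 CPM in combination libraries and 1067, 1103 and 1037 CPM in vehicle libraries and was not called (log2 change -0.07, SE 0.0511, adjusted p = 0.51). CDK1, the mitotic kinase, had 59.3, 58.7 and 54.8 CPM in combination libraries and 63.7, 60.5 and 47.8 CPM in vehicle libraries, with overlapping groups.

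Protein-coding genes with short transcripts tended to lower values. By the longest annotated GENCODE 29 transcript, the median log2 change was -0.24 among 370 genes of up to 1000 nt, -0.10 among 1941 genes of 1000 to 2000 nt, 0.01 among 5221 genes of 4000 to 8000 nt and 0.03 among 1370 genes over 8000 nt. In the shortest class 2 genes were higher and 53 (14.3%) lower. In the longest class 108 (7.88%) were higher and 86 (6.28%) lower. Without the ribosomal protein, respiratory chain, histone and mitochondrially encoded lists, the shortest class held 297 genes with a median of -0.15, of which 24 were lower. Of the 13 mitochondrially encoded mRNAs 8 fall in this class (list median 784 nt), and of 50 replication-dependent histones with a length 31 do (median 650 nt), while the ribosomal protein genes (1857 nt), the respiratory chain genes (1432 nt) and the ATF4 target list (2656 nt) have longer annotated transcripts. Transcript length therefore moved with several of the lists above, and so did library size, which was smaller in all combination libraries. Their part in the results was not tested.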

How the data were processed

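Stranded total RNA libraries of SBC5 cells were analysed from a gene table of estimated counts that the authors deposited and made with kallisto 0.46.1, per the submitters' processing notes. For the transcriptome release, the genome build and the strand setting of the counting, the value was not given in the sources used here. The file held 60649 gene IDs, 44 of them pseudoautosomal copies on the Y chromosome that were added to their X partners. Symbols were found for 60463 IDs, and transcript lengths and gene types came from GENCODE 29. Reads of pseudogenes, near-identical copies and antisense partners can be split unevenly by the counting.

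Estimated counts were rounded to whole numbers and tested within the 6 libraries with edgeR 4.0.16 (R 4.3.3): filterByExpr, TMM scaling, a robust quasi-likelihood fit and Benjamini-Hochberg adjustment over the 23003 genes tested, with calls at an adjusted p under 0.05. Each SE was obtained by dividing the log2 change by the root of its F statistic. The biological coefficient of variation was 24.9%. The test was checked on simulated counts. Alternatives were DESeq2 1.42.0, limma 3.58.1 (voom), other scalings and filters, a replicate block, each library left out, mitochondrially encoded genes left out, and fits with 9 or all 12 libraries.

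Gene lists were described by counts and medians, with no test of a list. The experiment, the lists and the rules were chosen with earlier results of these data known. Genes were named by rule: the 15 of smallest p in each direction at a mean of at least 10 CPM, the 8 largest changes in each direction, called genes among the 50 most abundant, up to 5 called members a list in each direction at 1 CPM or more, and a few immune, cell cycle and PARP genes whatever their values. ASNS, CEBPG, MTHFD2, DDIT3, SREBF2, SARS1, YARS1, IARS1, MET, IGF1R and the members printed for their promoters, as well as the list members given as not called, fall outside the rule and were chosen after their values were seen.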

Additional observations from a re-analysis of the deposited data

How the results depend on the processing

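Of the 523 higher and 971 lower genes, 523 and 967 were shared with the calls under DESeq2 size factors, 477 and 956 without a count filter, 461 and 947 with DESeq2, and 413 and 810 with limma-voom. With library size alone 2395 genes were higher and 326 lower, and the 326 were all among the 971. With all 12 libraries 1 gene was higher and 0 lower, and with 9 libraries 475 were higher and 1010 lower. A minimum log2 change of 1 left 93 higher and 49 lower. With a library left out, 274 to 382 genes were higher and 646 to 873 lower. With library size alone, 22 list medians changed sign, 10 of them by more than the spread between libraries on both sides of 0: to 0.05 for mitochondrial ribosomal proteins and for splicing factors, 0.06 for translation factors and for cytosolic chaperones, 0.07 for the proteasome, 0.10 for extracellular matrix, 0.11 for fatty acid synthesis, 0.12 for immune checkpoint ligands, 0.13 for AU-rich element binding, and 0.14 for damage checkpoint genes. The other 12 lay within that spread under one scaling or both, or belong to lists with no called member. The median of all genes also moved, from 0.01 to 0.20. Relative to that median, mitochondrial ribosomal proteins lay at -0.15, splicing factors at -0.16 and the proteasome at -0.14 with library size alone. With TMM their medians were -0.14, -0.15 and -0.13. Why the scalings differ was not tested. None of 248 named genes changed sign with a call in any fit run. Of these, 80 lost the call with library size alone, 243 with all 12 libraries, 13 with 9 libraries and 38 to 59 with a library left out.

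Same-numbered libraries had correlations of 0.0231, -0.0171 and -0.0165 between deviations from their group means, within the range of unlike-numbered pairs (-0.0325 to 0.0497). With so few libraries a group, these values cannot decide whether a replicate number marks a shared culture or day. A replicate block gave 504 higher and 951 lower genes, and 11 of the 248 named genes lost their call.

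Depth limits genes under 1 CPM, of which 20 of 4834 were called. The combination libraries were shallower than the vehicle libraries, which raises the limit that a count of 0 allows.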

Other observations

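Splicing factors were lower in 15 of 62 cases (24.2%) and higher in 0 (median log2 change -0.15). With library size alone the median was 0.05, with 7 higher and 3 lower. Their mean levels ran from 3.7 to 720.3 CPM. Of all tested genes 4.22% were lower, with 26.3% at 100 to 1000 CPM and 7.6% at 10 to 100 CPM. HNRNPA1, an RNA-binding protein of nuclear ribonucleoprotein complexes, had 417, 432 and 433 CPM in combination libraries and 601, 616 and 618 CPM in vehicle libraries (log2 change -0.52, SE 0.0547, adjusted p = 6.55e-07). HNRNPA2B1, its relative, had 516, 482 and 479 CPM in combination libraries and 701, 728 and 636 CPM in vehicle libraries (log2 change -0.48, SE 0.0598, adjusted p = 5.66e-06). Both separated the groups completely. Of 64 chromatin modifiers 5 were higher and 10 lower, against 27 higher and 3 lower with library size alone, and the higher count was 0 without vehicle 1, 1 without combination 1 or combination 3 and 2 without vehicle 2 or combination 2. HDAC2, a histone deacetylase, had 311, 296 and 299 CPM in combination libraries and 384, 454 and 378 CPM in vehicle libraries (log2 change -0.42, SE 0.0668, adjusted p = 0.000146). DNMT1, the maintenance DNA methyltransferase, had 77.8, 75.9 and 77.8 CPM in combination libraries and 99.7, 104 and 104 CPM in vehicle libraries (log2 change -0.41, SE 0.0718, adjusted p = 0.000505).

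Of 46 receptor tyrosine kinases and ligands 3 were higher and 9 lower (median -0.03, and 0.16 with library size alone, when 8 were higher and 5 lower), with IGF2 the highest change and 1 higher gene without vehicle 2, vehicle 3 or any combination library. MET, the receptor of HGF, had 529.8, 541 and 501 CPM in combination libraries and 727, 721 and 741 CPM in vehicle libraries (log2 change -0.48, SE 0.0547, adjusted p = 1.63e-06), and IGF1R, a receptor of insulin-like growth factors, had 225, 205 and 197 CPM in combination libraries and 274, 295 and 299.5 CPM in vehicle libraries (log2 change -0.47, SE 0.0654, adjusted p = 2.66e-05). Both fell in all combination libraries. Of 39 adhesion genes 2 were higher and 7 lower (median -0.23, and -0.04 with library size alone, when 3 were higher and 2 lower). For both lists, the lower share over all tested genes was 4.22%, with 26.3% at 100 to 1000 CPM and 7.6% at 10 to 100 CPM. DSP, the desmosomal plaque protein desmoplakin, was higher at 126, 129.8 and 131 CPM in combination libraries and 84.4, 86.6 and 92.4 CPM in vehicle libraries (log2 change 0.55, SE 0.0699, adjusted p = 8.15e-06), and NRCAM, a neuronal adhesion molecule, was lower at 850.5, 828 and 843 CPM in combination libraries and 1142, 1132 and 1148 CPM in vehicle libraries (log2 change -0.44, SE 0.0505, adjusted p = 1.67e-06). Of 22 circadian clock genes 2 were higher and 3 lower, against 5 and 2 with library size alone. RORA, an activating nuclear receptor of the clock, had 54.5, 46.6 and 49.1 CPM in combination libraries and 25.7, 30.2 and 31.3 CPM in vehicle libraries (log2 change 0.78, SE 0.103, adjusted p = 1.33e-05), and RORB, its relative, had 256, 240.0 and 252 CPM in combination libraries and 333, 354 and 345 CPM in vehicle libraries (log2 change -0.46, SE 0.0597, adjusted p = 1.02e-05). These 2 related receptors moved in opposite directions.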
